A study of Mus musculus with 16 samples.

Results

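Messenger RNA levels of 6 genes that are best known from mesenchymal cells, the connective tissue and vessel wall cells of an organ, were examined in LKR10 cells, an established line from a mouse lung adenocarcinoma. The genes were the receptors Pdgfra and Pdgfrb, the transcription factors Meox2 and Foxf1, and the secreted proteins Grem1 and Smoc2. They are 6 of 12321 genes with values and were picked by name because they differed between the hairpins in these data, so the hairpin comparisons of these genes are given as descriptions without tests. RNA sequencing covered 16 libraries, 4 in each of 4 groups. All cells had received a pLKO lentivirus, with a short hairpin RNA against either GFP (shGFP, the control) or Ankrd35 (shAnkrd35), had passed 48 h of puromycin at 4 µg/ml and had then grown for 96 h before harvest. They were grown as an attached monolayer (2D) or suspended in medium with 0.5% methylcellulose (3D), which gives the groups 2D shGFP, 2D shAnkrd35, 3D shGFP and 3D shAnkrd35. The study was designed to ask how loss of Ankrd35 alters gene expression in each growth type.

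The library totals ranged from 13.82 to 28.72 M reads, lowest in replicate 3 of 3D shAnkrd35. Ankrd35 itself was counted at 2 to 7 reads in the 2D shGFP libraries and at 1 to 7 in the 2D shAnkrd35 libraries, and at 14 to 17 reads with shGFP and 9 to 12 with shAnkrd35 in 3D. Scaled to library size, the 3D levels overlapped, at 0.538 to 0.662 CPM with shGFP and 0.414 to 0.632 CPM with shAnkrd35. The counts are too low to check the hairpin labels in 2D or 3D, so groups are named as labelled. The labels say neither how many hairpin sequences were used per target nor that replicates were separate cultures, so the p-values reflect variation among the sequenced libraries, and this variation may be technical. Each RNA comes from a whole culture, in which fewer cells expressing a gene and less RNA per cell cannot be told apart. Libraries also differed in how the level of a gene depended on its GC content. The slope of this relation, in log2 units per 10 points of GC, was -0.106 to 0.314 in 2D shGFP, 0.278 to 0.572 in 2D shAnkrd35, -0.319 to -0.25 in 3D shGFP and -0.292 to -0.136 in 3D shAnkrd35. The growth and hairpin comparisons were also fitted with the trend of level with GC content and length removed. For the 6 genes, the listed pathway and marker genes and the genome neighbours, values that this changed markedly are given beside the result. It changed 71 of 404 calls in 101 of these listed and neighbouring genes.

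Pdgfra and Pdgfrb encode receptor tyrosine kinases that bind platelet-derived growth factors. In the lung, Pdgfra marks fibroblasts and the precursors of alveolar myofibroblasts, and Pdgfrb marks pericytes and smooth muscle. Meox2 is a homeobox transcription factor of the somites, muscle precursors and vessel wall. Foxf1 is a forkhead transcription factor of lung and gut mesenchyme that acts downstream of Hedgehog signals from the epithelium. Grem1 is a secreted protein that binds bone morphogenetic proteins (BMPs) and keeps them from their receptors. Smoc2 is a secreted calcium-binding matrix protein of the SPARC family.

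Start regions are shown as background for the genes with a matched window, and the part of their sequence in the levels was not tested. RefSeq windows for GRCm38.p6 were matched for 3 of the 6 genes, Pdgfra, Meox2 and Grem1. Each window runs from 250 bases before to 50 bases after the annotated start, 5′ to 3′ on the strand of the gene, and capitals mark matches to the motifs searched. The Pdgfra window lies on chromosome 5 at 75152001-75152300, plus strand, the Meox2 window on chromosome 12 at 37108290-37108589, plus strand, and the Grem1 window on chromosome 2 at 113758599-113758898, minus strand.
Pdgfra: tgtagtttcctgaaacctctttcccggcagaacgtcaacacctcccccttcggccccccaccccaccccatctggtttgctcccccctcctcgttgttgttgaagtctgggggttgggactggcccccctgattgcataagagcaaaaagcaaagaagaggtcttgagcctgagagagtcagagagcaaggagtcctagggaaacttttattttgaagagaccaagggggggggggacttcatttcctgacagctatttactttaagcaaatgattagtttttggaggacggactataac
Meox2: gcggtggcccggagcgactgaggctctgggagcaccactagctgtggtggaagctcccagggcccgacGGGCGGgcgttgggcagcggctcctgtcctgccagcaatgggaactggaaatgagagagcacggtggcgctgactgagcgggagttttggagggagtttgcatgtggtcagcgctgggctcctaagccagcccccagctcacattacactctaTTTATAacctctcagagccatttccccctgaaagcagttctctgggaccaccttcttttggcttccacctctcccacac
Grem1: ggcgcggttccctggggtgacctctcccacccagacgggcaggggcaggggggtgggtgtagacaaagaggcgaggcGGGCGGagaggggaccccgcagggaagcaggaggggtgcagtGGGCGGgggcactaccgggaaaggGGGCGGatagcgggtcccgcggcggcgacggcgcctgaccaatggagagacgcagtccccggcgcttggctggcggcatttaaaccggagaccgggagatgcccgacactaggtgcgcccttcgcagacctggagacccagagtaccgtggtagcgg
The Pdgfra window held 5 CpG dinucleotides at 51.0% GC, the Meox2 window 12 at 60.7% GC and the Grem1 window 28 at 70.7% GC. Over 32851 such windows of 27025 genes the medians were 7 CpG dinucleotides and 52.7% GC. Motifs were searched on both strands. GGGCGG, the core bound by SP and KLF factors, was found at position 69 of the Meox2 window and at positions 78, 120 and 144 of the Grem1 window, counted from the first base, and 35.7% of all windows held it. TATAAA was found on the opposite strand of the Meox2 window at position 222, where it reads TTTATA as printed, and 13.6% of all windows held it. ACCACCC (the core of the GLI site, in 4.6% of windows), TGTTTAC (forkhead, 3.6%), CArG boxes (1.6%), TGACTCA or TGAGTCA (AP-1, 5.2%) and CAGCTG (E-box, 16.3%) were in none of these 3 windows.

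Levels are given as CPM, the reads of a gene per 1000000 reads of the library after the scaling of library sizes. All 6 genes were in the lower part of the range: their mean over the 16 libraries ran from 2.07 CPM for Pdgfra, at percentile 7.7 of all genes, to 14.7 CPM for Foxf1, at percentile 32.5. Per kilobase of exon, Foxf1 had the highest level of the 6 in each group, at 5.73 CPM per kb in 2D shGFP, 4.74 in 2D shAnkrd35, 10.6 in 3D shGFP and 3.4 in 3D shAnkrd35. Pdgfrb was second in 2D shGFP at 3.05 CPM per kb. The lowest of the 6 was Pdgfra, at 0.365 CPM per kb in 2D shGFP and 0.0988 in 3D shAnkrd35, except in 2D shAnkrd35, where Grem1 was lower at 0.114 against 0.202 for Pdgfra.

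**Figure D1:**
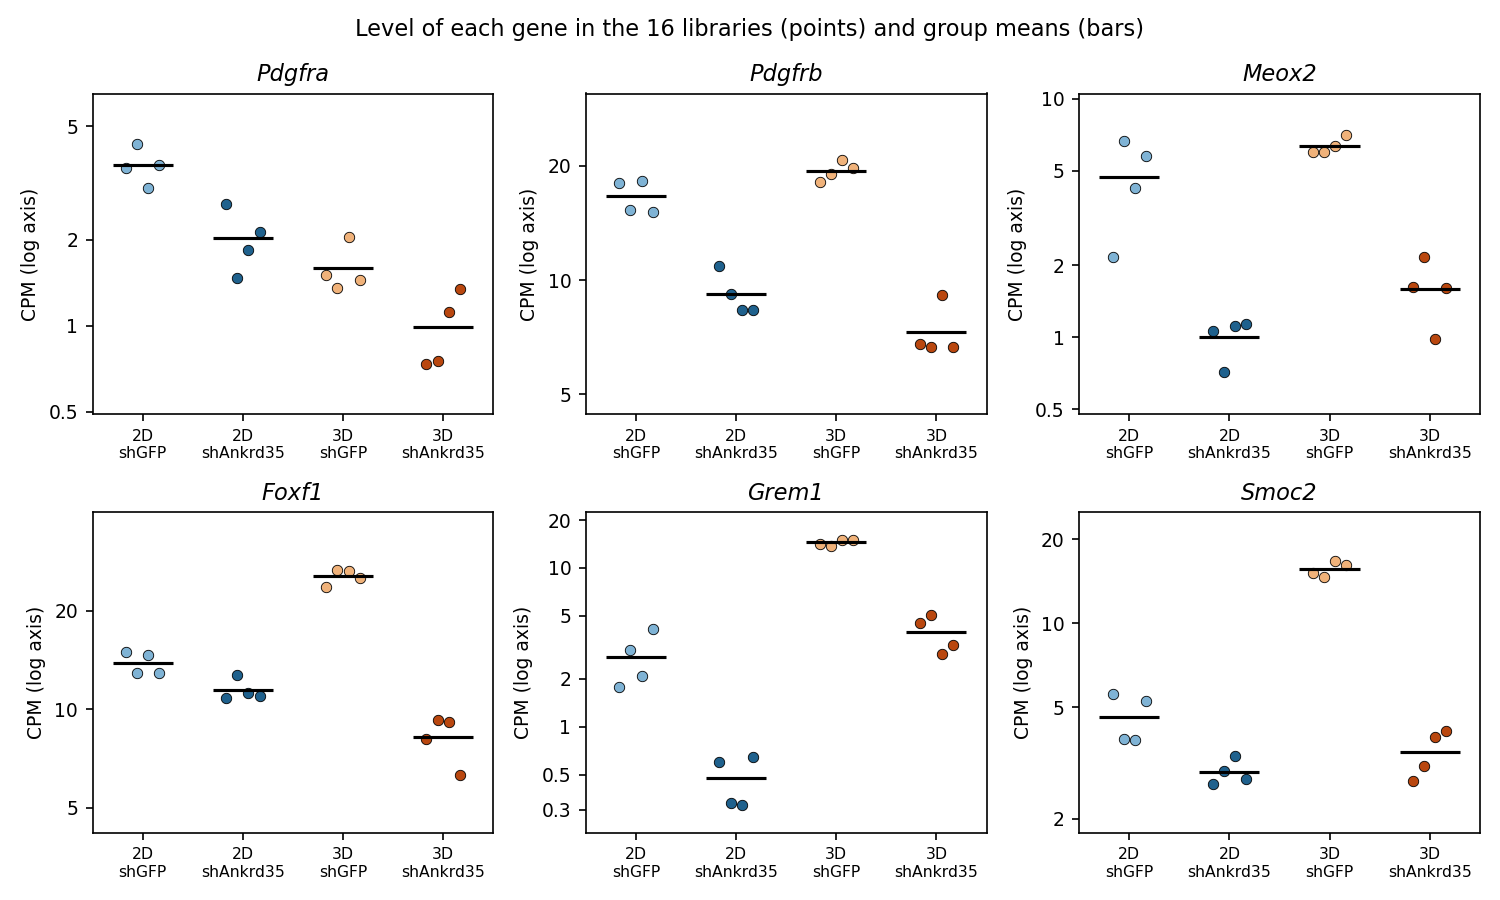
Level of each gene in CPM on a log axis (vertical) in the 4 groups (horizontal); each point is 1 of 16 libraries and each bar is the mean of a group. The shAnkrd35 points lie below the shGFP points of the same growth type in every panel, while the step from 2D to 3D is downward for Pdgfra, upward for Grem1 and depends on the hairpin for Foxf1.

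Pdgfra (ENSMUSG00000029231.15, chromosome 5, 75152292-75198215, plus strand, mm10, 27 exonic blocks) had its highest level in the control monolayer. In 2D shGFP it was at 3.58, 4.35, 3.05 and 3.65 CPM in replicates 1 to 4, and in 3D shGFP at 1.51, 1.36, 2.05 and 1.45 CPM. The groups did not overlap, and the gene fell in 3D by 1.16 ± 0.21 (log2 fold change ± SE, adjusted p = 0.000151, limma). With shAnkrd35 the values were 2.67, 1.47, 1.84 and 2.13 CPM in 2D and 0.734, 0.753, 1.12 and 1.35 CPM in 3D. These groups did not overlap either, and Pdgfra fell by 0.98 ± 0.21 (adjusted p = 0.000623, limma). The means dropped from 3.66 ± 0.534 to 1.59 ± 0.309 CPM with shGFP and from 2.03 ± 0.504 to 0.99 ± 0.30 CPM with shAnkrd35 (SD, n = 4), a ratio of 2.3 and 2.05. The counts behind these values were small, 16 to 26 reads per library in 3D shAnkrd35 and 64 to 89 in 2D shGFP. Between the hairpins, Pdgfra was 0.84 ± 0.21 lower with shAnkrd35 in 2D and 0.66 ± 0.21 lower in 3D on the log2 scale. The 2D shAnkrd35 and 3D shGFP levels overlapped, so that the order of the groups was 2D shGFP, then these 2 together, then 3D shAnkrd35, whose highest library at 1.35 CPM was just under the lowest 3D shGFP library at 1.36 CPM.

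Pdgfrb (ENSMUSG00000024620.11, chromosome 18, 61045150-61085061, plus strand, 24 exonic blocks) was lower in every shAnkrd35 library than in every shGFP library, a difference on which it was chosen. It was at 18.0, 15.3, 18.3 and 15.1 CPM in 2D shGFP and at 18.1, 19.0, 20.7 and 19.8 CPM in 3D shGFP. These overlapped, and the difference of 0.22 ± 0.11 had an adjusted p of 0.089 (limma). With shAnkrd35 it was at 10.9, 9.18, 8.34 and 8.37 CPM in 2D and at 6.81, 6.66, 9.12 and 6.65 CPM in 3D. Here 3 of the 4 libraries in 3D lay below all of those in 2D, and Pdgfrb fell by 0.33 ± 0.11 (adjusted p = 0.0134, limma). Neither growth result was settled: with the GC and length trend removed the shGFP difference was 0.33 (adjusted p = 0.00796) and the shAnkrd35 difference was -0.21 (adjusted p = 0.0807), and with the libraries centred on their medians the shGFP difference was 0.14. The hairpin groups were apart in both growth types, with means of 16.7 ± 1.69 and 9.19 ± 1.18 CPM in 2D and 19.4 ± 1.11 and 7.31 ± 1.21 CPM in 3D (SD, n = 4). On the log2 scale shAnkrd35 was 0.86 ± 0.11 lower in 2D and 1.41 ± 0.11 lower in 3D.

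The other genes of the PDGF pathway did not share a direction. Of 8 listed ligands and related receptors, 4 were measured. The ligand genes Pdgfa and Pdgfb fell in 3D with both hairpins, although Pdgfa with shAnkrd35 differed by 0.02 with the trend removed (adjusted p = 0.731). The ligand gene Pdgfc fell with shAnkrd35 by 0.12 ± 0.05 (adjusted p = 0.0435, limma). With shGFP its difference of -0.05 ± 0.05 did not pass (adjusted p = 0.457). With the trend removed Pdgfc fell by 0.18 with shGFP and by 0.31 with shAnkrd35. Pdgfb fell by 0.67 ± 0.12 with shGFP (adjusted p = 0.000115) and by 1.20 ± 0.12 with shAnkrd35 (adjusted p = 2.04e-07). Nrp1, a co-receptor, rose by 0.60 ± 0.09 (adjusted p = 1.64e-05) and 0.64 ± 0.09 (adjusted p = 8.27e-06), the latter 0.31 with the trend removed. Between the hairpins Pdgfb alone of the 4 passed the test, although Pdgfa and Pdgfc passed too in 2D with the trend removed (-0.22 and 0.17). Pdgfb was 0.71 ± 0.12 higher with shAnkrd35 in 2D (adjusted p = 0.000115, from 7.6 ± 0.206 to 12.5 ± 0.933 CPM) and did not pass in 3D (0.18 ± 0.12, adjusted p = 0.296). Of 14 measured intermediates that carry the receptor signal, 3 rose and 6 fell in 3D with shGFP, against 35.2% and 32.1% of all genes. With shAnkrd35 6 rose and 7 fell, against 34.4% and 36.0%. With the trend removed 2 rose and 8 fell, and 3 rose and 9 fell, and Sos1, Pik3ca and Nck1 turned from a rise to a fall with shAnkrd35. Src, a kinase recruited to the receptors, fell by 0.80 ± 0.06 and 0.64 ± 0.06, and Rasa1, a GTPase-activating protein that binds them, rose by 1.15 ± 0.21 and 1.95 ± 0.21 (0.34 and 0.48 with the trend removed). The list median was -0.20 with shGFP and -0.01 with shAnkrd35, against 0.03 and -0.02 over all genes tested. Between the hairpins 3 of the 14 were higher and 6 lower with shAnkrd35 in 2D, against 29.0% and 28.8% of all genes, and 2 were higher and 2 lower in 3D, against 15.0% and 14.6%. In 3D these became 3 and 7 with the trend removed. The medians were -0.11 and -0.09.

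Meox2 (ENSMUSG00000036144.6, chromosome 12, 37108540-37179534, plus strand, 3 exonic blocks) was at 2.17, 6.65, 4.24 and 5.78 CPM in 2D shGFP and at 5.99, 6.0, 6.33 and 7.02 CPM in 3D shGFP. The control monolayers spread widely, with replicate 1 far below the others, and overlapped with 3D. The difference of 0.53 ± 0.28 did not pass (adjusted p = 0.108, limma), and it depended on single libraries: it was 0.21 without replicate 1 of 2D shGFP and 0.73 without replicate 2 (adjusted p = 0.0316). With shAnkrd35 the levels were 1.06, 0.713, 1.11 and 1.14 CPM in 2D and 1.63, 2.18, 0.982 and 1.61 CPM in 3D. In 3D, 3 of 4 libraries were above every 2D library and replicate 3 was not. The difference was 0.60 ± 0.28 (adjusted p = 0.0697), and without that replicate it was 0.80 (adjusted p = 0.0198). Between the hairpins the means were 4.71 ± 1.96 and 1 ± 0.197 CPM in 2D and 6.33 ± 0.486 and 1.60 ± 0.49 CPM in 3D (SD, n = 4), which put shAnkrd35 lower by 2.04 ± 0.28 and 1.97 ± 0.28 on the log2 scale.

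Within 2D shGFP, the Meox2 level ran opposite to the GC slope of the library. Replicate 1, with the lowest Meox2 at 2.17 CPM, had the highest slope at 0.314, and replicate 2, with the highest Meox2 at 6.65 CPM, had the lowest slope at -0.106. Meox2 exons are 46.2% GC and Grem1 exons 44.7% GC, the lowest of the 6 genes, and Grem1 was also lowest in replicate 1 of this group. Removal of the GC and length trend left the hairpin difference of Meox2 at -2.04 in 2D and -1.88 in 3D. The growth difference with shGFP became 0.33 (adjusted p = 0.262).

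**Figure D2:**
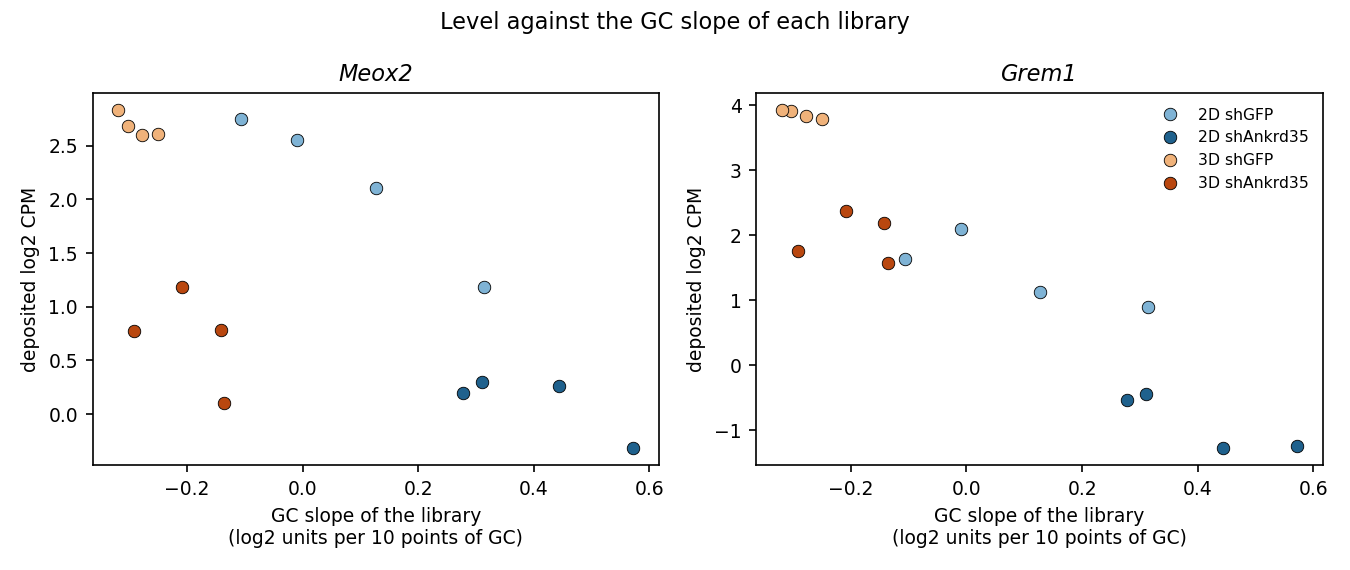
Deposited log2 CPM of Meox2 and Grem1 (vertical) against the GC slope of each library in log2 units per 10 points of GC (horizontal); each point is 1 library, coloured by group. The 2D libraries spread from -0.106 to 0.314 with shGFP and from 0.278 to 0.572 with shAnkrd35, and in 2D shGFP the library of the highest slope has the lowest level of both genes.

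Foxf1 (ENSMUSG00000042812.5, chromosome 8, 121084386-121088144, plus strand, 2 exonic blocks) took opposite steps from 2D to 3D with the 2 hairpins. In the control cells it was at 15.0, 12.9, 14.6 and 12.9 CPM in 2D and at 23.7, 26.7, 26.5 and 25.2 CPM in 3D. The groups were well apart, and Foxf1 rose by 0.88 ± 0.11 (adjusted p = 1.4e-06, limma), a ratio of means of 1.84. In the shAnkrd35 cells it was at 10.8, 12.7, 11.2 and 11.0 CPM in 2D and at 8.11, 9.29, 9.12 and 6.29 CPM in 3D. These groups did not overlap either, and Foxf1 fell by 0.49 ± 0.11 (adjusted p = 0.00055, limma). With the GC and length trend removed the fall was 0.29 (adjusted p = 0.0062). Across all genes 2.04% rose with shGFP and fell with shAnkrd35, 251 genes in all. This share is background and no test of Foxf1. The gap between its 2 steps equals the gap between its hairpin differences, on which the gene was chosen. No 2 of the 4 groups overlapped for Foxf1, and the order was 3D shGFP at 25.5 ± 1.41, 2D shGFP at 13.8 ± 1.12, 2D shAnkrd35 at 11.4 ± 0.883 and 3D shAnkrd35 at 8.2 ± 1.38 CPM (SD, n = 4). The hairpin difference was accordingly small in 2D, -0.27 ± 0.11 (-0.47 with the GC and length trend removed), and larger in 3D, -1.64 ± 0.11.

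Foxf1 has a divergent neighbour, the long noncoding RNA gene Fendrr (chromosome 8, 121054882-121083110, minus strand), whose start lies 1276 bases from the Foxf1 start and which is known for expression in lateral mesoderm. Fendrr was at 5.39, 10.2, 5.85 and 8.11 CPM in 2D shGFP and at 19.1, 20.7, 18.5 and 13.1 CPM in 3D shGFP. As with Foxf1 the groups were apart, and Fendrr rose by 1.29 ± 0.19 (adjusted p = 1.29e-05, limma). With shAnkrd35 it was at 4.14, 4.94, 4.65 and 5.15 CPM in 2D and 6.64, 5.57, 7.58 and 5.25 CPM in 3D. Every 3D library was above every 2D library, the reverse of Foxf1, but the difference of 0.39 ± 0.19 did not pass (adjusted p = 0.0705). Removal of the GC and length trend brought it to 0.56, which passed (adjusted p = 0.0107). Fendrr was lower with shAnkrd35 by 0.59 ± 0.19 in 2D (adjusted p = 0.012) and by 1.49 ± 0.19 in 3D (adjusted p = 1.34e-05). Mthfsd, 3.5 kb beyond the other end of Foxf1, rose in 3D with shGFP by 0.49 ± 0.08 (adjusted p = 3.97e-05), was higher with shAnkrd35 in 2D by 0.42 ± 0.08 (adjusted p = 0.000328) and showed a difference of -0.02 ± 0.08 between the hairpins in 3D (adjusted p = 0.902).

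**Figure D3:**
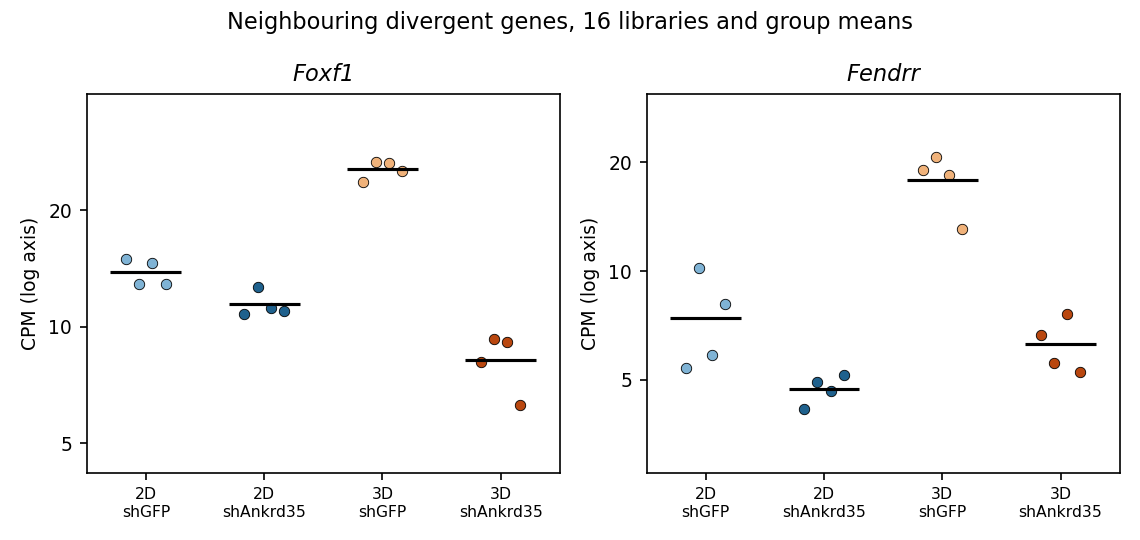
Levels in CPM (vertical, log axis) of Foxf1 and of its divergent neighbour Fendrr in the 4 groups (horizontal); points are the 16 libraries and bars the group means. Both genes are highest in 3D shGFP, with means of 25.5 and 17.8 CPM, while 3D shAnkrd35 is the lowest group for Foxf1 at 8.2 CPM and lies above 2D shAnkrd35 for Fendrr, at 6.26 against 4.72 CPM.

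Hedgehog signalling, which induces Foxf1 in developing lung, was measured by 8 of 16 listed genes. In 3D 7 of the 8 fell with shGFP and 7 fell with shAnkrd35, and none rose with either, against 32.1% and 36.0% of all genes that fell. The gene that did not fall was the ligand gene Dhh, at 0.03 ± 0.06 with shGFP (adjusted p = 0.634) and 0.06 ± 0.06 with shAnkrd35 (adjusted p = 0.366). With the trend removed 6 of the 8 fell with each hairpin, and Dhh rose with shAnkrd35 by 0.21 (adjusted p = 0.00422). Gli3, a transcription factor of the pathway, fell by 2.47 ± 0.23 and 2.78 ± 0.23 (adjusted p = 7.99e-08 and 2.46e-08), from 3.98 ± 0.259 to 0.66 ± 0.177 CPM and from 3.45 ± 0.848 to 0.428 ± 0.136 CPM. Every gene with a value but Ankrd35 had at least 1.05 CPM, prior included, in 8 libraries. Both 3D means of Gli3 were under this level, so the gene had a value only through its 2D libraries. Ptch1, the Hedgehog receptor and a target of the pathway, fell by 0.41 ± 0.06 and 0.45 ± 0.06. Between the hairpins 2 of the 8 were higher, Dhh and Hhat, and 2 lower, Sufu and Cdon, in each growth type, against 29.0% higher and 28.8% lower of all genes in 2D and 15.0% and 14.6% in 3D. Dhh did not pass in 2D with the trend removed (0.09, adjusted p = 0.21). Ptch1 did not pass in either growth type (-0.06 ± 0.06 in 2D and -0.10 ± 0.06 in 3D). With the trend removed it was higher with shAnkrd35 in 2D (0.12, adjusted p = 0.0123, limma) and lower in 3D (-0.14, adjusted p = 0.00724). Disp1 was then lower in 2D (-0.17, adjusted p = 0.00889). The ligand genes Shh and Ihh and the factor genes Gli1 and Gli2 had no value here.

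Of 26 other listed mesenchymal transcription factors, 12 were measured. In 3D 2 rose and 4 fell with shGFP, against 35.2% and 32.1% of all genes, and 2 rose and 5 fell with shAnkrd35, against 34.4% and 36.0%. The shares that fell were thus near those of all genes. Foxf2, the paralogue of Foxf1, rose with shGFP by 0.37 ± 0.08 (adjusted p = 0.000597) and differed by -0.09 ± 0.08 with shAnkrd35 (adjusted p = 0.342), which became a rise of 0.17 with the trend removed (adjusted p = 0.00631). In 2D Foxf2 was 0.42 ± 0.08 higher with shAnkrd35 (adjusted p = 0.00031; 0.24 with the trend removed). Snai2 and Osr1 fell in 3D with both hairpins, Snai2 by 2.44 ± 0.08 with shGFP and 1.57 ± 0.08 with shAnkrd35, and Osr1 by 2.95 ± 0.14 and 1.84 ± 0.14. Between the hairpins 1 of the 12 was higher and 4 were lower with shAnkrd35 in 2D, against 29.0% and 28.8% of all genes, and 2 were higher and 4 lower in 3D, against 15.0% and 14.6%. The share lower in 2D was near that of all genes. Lower in 2D were Snai1, Snai2, Zeb1 and Zeb2, and lower in 3D were Foxc1, Prrx1, Prrx2 and Snai1, where Osr1 and Nr2f2 were higher. Snai1 was thus lower in both growth types, by 0.41 ± 0.14 in 2D (adjusted p = 0.0234) and 0.61 ± 0.14 in 3D (adjusted p = 0.0041). With the trend removed the differences of Zeb1 and Zeb2 in 2D shrank from -0.36 and -0.69 to -0.14 and -0.36.

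Grem1 (ENSMUSG00000074934.3, chromosome 2, 113746164-113758646, minus strand, 2 exonic blocks) had the largest step from 2D to 3D of the 6 genes. In control cells it was at 1.77, 3.04, 2.09 and 4.15 CPM in 2D and at 14.2, 13.8, 15.0 and 15.0 CPM in 3D. The 3D libraries lay close together far above the 2D ones, and Grem1 rose by 2.43 ± 0.25 (adjusted p = 3.01e-07, limma). With shAnkrd35 it was at 0.598, 0.333, 0.323 and 0.644 CPM in 2D, only 7 to 13 reads per library, and at 4.48, 5.08, 2.88 and 3.27 CPM in 3D. Grem1 rose here too, by 2.85 ± 0.25 (adjusted p = 5.5e-08, limma), from a mean of 0.474 ± 0.17 to 3.93 ± 1.03 CPM, a ratio of 8.28. In the control cells the mean went from 2.76 ± 1.07 to 14.5 ± 0.615 CPM (SD, n = 4), a ratio of 5.24. With the GC and length trend removed the rises were 2.17 and 2.52. The level in 3D shAnkrd35 overlapped with that in 2D shGFP. Between the hairpins Grem1 was lower with shAnkrd35 by 2.32 ± 0.25 in 2D and by 1.89 ± 0.25 in 3D on the log2 scale, and with the trend removed by 2.17 and 1.81. Its measured genome neighbours rose in 3D too, where 35.2% of all genes rose with shGFP and 34.4% with shAnkrd35. Fmn1, 29.4 kb away, rose by 0.57 ± 0.11 and 0.84 ± 0.11, and Arhgap11a, 72.8 kb away, by 0.68 ± 0.13 and 1.06 ± 0.13. Both were lower with shAnkrd35 in 2D (-0.46 and -0.45). Neither passed between the hairpins in 3D (-0.19 and -0.07), but Fmn1 did with the trend removed (-0.22). With the trend removed, 7 of the 12 neighbours of the 6 genes rose and 4 fell with shGFP. With shAnkrd35 4 rose and 3 fell.

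The BMP pathway, whose ligands Grem1 binds, was followed in 4 lists. Of 14 other BMP inhibitors 7 were measured. In 3D 2 of them rose and 4 fell with each hairpin, against 35.2% and 32.1% of all genes with shGFP and 34.4% and 36.0% with shAnkrd35, with a list median of -0.74 with shGFP and -0.89 with shAnkrd35. Fst and Fstl3, which bind activins and BMPs, fell: Fst by 1.93 ± 0.23 and 2.23 ± 0.23 and Fstl3 by 2.52 ± 0.16 and 2.48 ± 0.16. The 3D means of Fst, 1.14 ± 0.356 and 0.96 ± 0.336 CPM, were near the 1.05 CPM that genes with values reached in 8 libraries. Twsg1, a secreted BMP-binding protein, had the directions of Grem1 in all 4 comparisons. It rose in 3D by 0.49 ± 0.08 and 0.72 ± 0.08 (adjusted p = 4.19e-05 and 6.3e-07), and it was lower with shAnkrd35 by 1.21 ± 0.08 in 2D (adjusted p = 3.55e-09) and by 0.98 ± 0.08 in 3D (adjusted p = 1.03e-07). Bmper was also lower with shAnkrd35 in both growth types, and Chrd in 3D. This made 2 of the 7 lower in 2D and 3 in 3D, against 28.8% and 14.6% of all genes, and none passed as higher.

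Of 11 genes in the list of BMP ligands 4 were measured: the ligand genes Bmp4, Bmp5 and Bmp7, and Bmp1, which encodes a procollagen proteinase and no ligand in spite of its name. Bmp4 and Bmp5 took opposite directions in 3D. Bmp5 rose by 1.09 ± 0.12 with shGFP and 1.12 ± 0.12 with shAnkrd35, but by 0.46 and 0.17 with the trend removed. Bmp4 fell by 0.36 ± 0.06 and 1.10 ± 0.06 (adjusted p = 6.59e-05 and 1.31e-10). Bmp7 was higher with shAnkrd35 in both growth types, by 1.66 ± 0.23 in 2D (adjusted p = 1.71e-05) and 1.49 ± 0.23 in 3D (adjusted p = 0.000112), from means of 1.14 ± 0.216 and 0.941 ± 0.39 CPM to 3.81 ± 0.536 and 2.65 ± 0.248 CPM. Of 9 measured receptors and SMADs, 6 were lower and Smad1 higher with shAnkrd35 in 2D, against 28.8% and 29.0% of all genes, and 2 were lower in 3D, against 14.6%. In 3D against 2D, 3 of the 9 rose and 4 fell with shGFP (35.2% and 32.1% of all genes), and 4 rose and 2 fell with shAnkrd35 (34.4% and 36.0%). Trend removal left 4 of the 9 lower with shAnkrd35 in 3D, and Bmpr2, a receptor, turned from a rise of 1.02 with shAnkrd35 to -0.31 (adjusted p = 1.68e-05).

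Of 11 listed BMP target genes 7 were measured. With shGFP 3 rose in 3D (Id1, Id2 and Bambi) and 3 fell, against 35.2% and 32.1% of all genes, and with shAnkrd35 Id2 rose and the other 6 fell, against 34.4% and 36.0%. The fall of Id1 did not pass with the trend removed (0.02, adjusted p = 0.751). Id2, an inhibitor of basic helix-loop-helix factors, rose by 1.70 ± 0.09 with shGFP (adjusted p = 2.37e-11) and by 0.71 ± 0.09 with shAnkrd35 (adjusted p = 1.67e-06). Id3 was at 186 ± 9.14 CPM in 2D shGFP and 173 ± 4.14 in 3D shGFP (adjusted p = 0.242), and at 285 ± 36.9 and 151 ± 12.1 CPM with shAnkrd35 (adjusted p = 3.8e-08). Between the hairpins in 2D, Id1, Id2 and Id3 were higher with shAnkrd35 by 0.54 ± 0.09, 0.50 ± 0.09 and 0.61 ± 0.08, Atoh8 was lower by 0.15 ± 0.05 (adjusted p = 0.0233), and Smad6, Smad7 and Bambi did not pass. That is 3 of 7 higher and 1 lower, against 29.0% and 28.8% of all genes. Trend removal brought the 3 Id differences to 0.19, 0.52 and 0.35 and that of Atoh8 to -0.31. In 3D 2 of the 7 were lower, against 14.6% of all genes, and none passed as higher: Id2 was lower by 0.49 ± 0.09 (adjusted p = 0.000321) and Bambi, a decoy receptor, by 0.74 ± 0.10 (adjusted p = 2e-05). With the trend removed Id1, Id3 and Smad7 were also lower there (-0.16, -0.25 and -0.17).

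**Figure D4:**
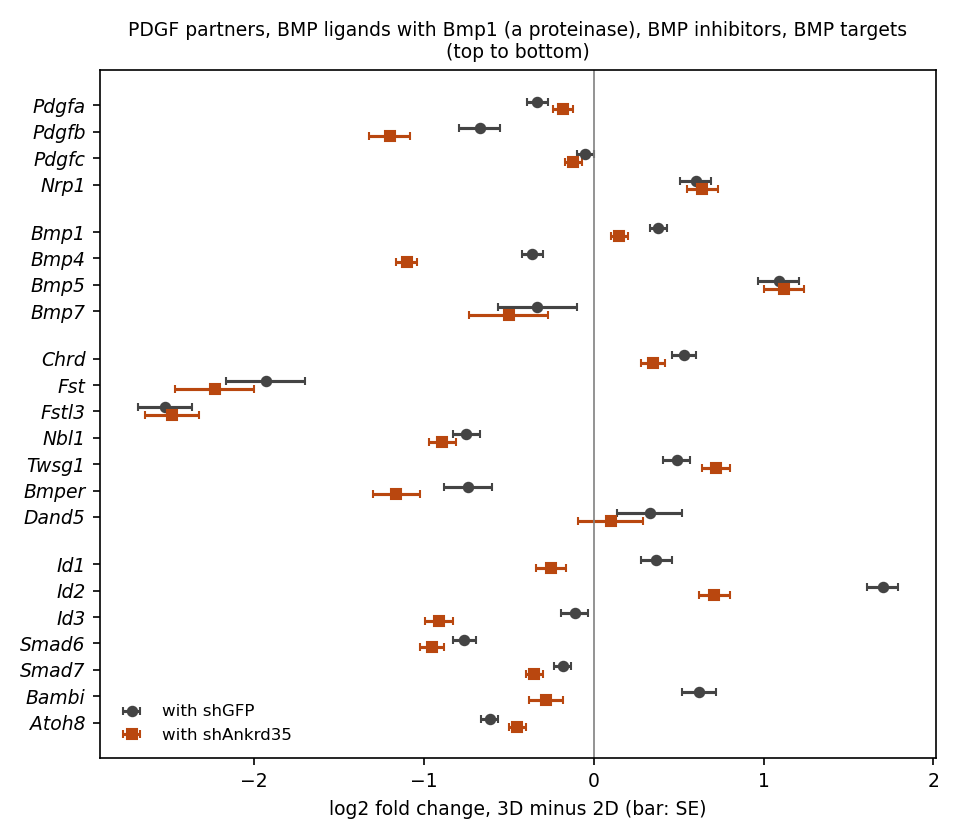
Log2 fold change of 3D against 2D (horizontal; bars are SE of the fit) for the measured PDGF ligand and co-receptor genes, BMP ligands, BMP inhibitors and BMP target genes (Bmp1, a proteinase, stands with the ligands; vertical), with shGFP as circles and shAnkrd35 as squares. The inhibitors Fst and Fstl3 lie between -2.52 and -1.93, and the target Id2 lies furthest to the right at 1.70 with shGFP.

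Smoc2 (ENSMUSG00000023886.10, chromosome 17, 14279506-14404790, plus strand, 17 exonic blocks) was high in only 1 of the 4 groups. It was at 5.59, 3.87, 3.81 and 5.27 CPM in 2D shGFP and at 15.2, 14.7, 16.7 and 16.2 CPM in 3D shGFP. The groups were far apart, and Smoc2 rose by 1.76 ± 0.15 (adjusted p = 1.69e-08, limma), a ratio of means of 3.39. With shAnkrd35 it was at 2.67, 2.95, 3.36 and 2.77 CPM in 2D and at 2.73, 3.09, 3.93 and 4.11 CPM in 3D. These overlapped, and the difference of 0.22 ± 0.15 did not pass (adjusted p = 0.196), with values of 0.12 to 0.32 over the alternatives tried. The 3D shAnkrd35 level also overlapped with that of 2D shGFP. The hairpin means were 4.64 ± 0.929 and 2.94 ± 0.306 CPM in 2D and 15.7 ± 0.928 and 3.46 ± 0.661 CPM in 3D (SD, n = 4), so that shAnkrd35 was lower by 0.63 ± 0.15 in 2D and by 2.17 ± 0.15 in 3D.

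Of 7 listed relatives of Smoc2, Smoc1 and Sparc were measured. Sparc, an abundant matricellular protein, fell in 3D by 0.76 ± 0.06 with shGFP and 0.74 ± 0.06 with shAnkrd35 (adjusted p = 2.3e-08 and 3.89e-08), where Smoc2 rose or did not pass. It was lower with shAnkrd35 by 0.90 ± 0.06 in 2D and 0.89 ± 0.06 in 3D (adjusted p = 9.32e-09 and 2.62e-08). Smoc1, the closest relative, was higher with shAnkrd35 by 0.48 ± 0.05 in 2D and 0.19 ± 0.05 in 3D (adjusted p = 8.78e-07 and 0.0109), the opposite of Smoc2. Its difference between 3D and 2D with shGFP was 0.06 ± 0.05 (adjusted p = 0.33). With shAnkrd35 the Smoc1 difference was -0.24 (adjusted p = 0.000542, limma), and -0.08 with the trend removed (adjusted p = 0.213).

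Set side by side, the 6 genes had 1 direction between the hairpins and several between the growth types. With shGFP 3 of the 6 rose in 3D (Grem1, Smoc2 and Foxf1) against 35.2% of all 12320 genes tested, 1 fell (Pdgfra) against 32.1%, and Pdgfrb and Meox2 did not pass. With shAnkrd35 1 rose (Grem1) against 34.4% of all genes and 3 fell (Pdgfra, Pdgfrb and Foxf1) against 36.0%, and Meox2 and Smoc2 did not pass. Those that rose in 3D did so without overlap of the groups, where 33.3% of all genes with shGFP and 29.9% with shAnkrd35 were higher without overlap. Lower without overlap were Pdgfra with shGFP (31.6% of all genes) and Pdgfra and Foxf1 with shAnkrd35 (29.3%). With the GC and length trend removed 3838 genes rose and 4534 fell with shGFP, in place of 4331 and 3954, and 3586 rose and 4697 fell with shAnkrd35, in place of 4235 and 4441. Changes between the growth types were thus common in this cell line, and the counts for the 6 genes do not stand out from them. The growth comparisons share their libraries with the hairpin comparisons on which the genes were chosen. All 6 genes were lower with shAnkrd35 in 2D and in 3D without overlap of any library, as the choice of genes implies. Over all genes 17.5% in 2D and 19.4% in 3D were lower without overlap, and 7.66% were called lower in both growth types by limma.

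**Figure D5:**
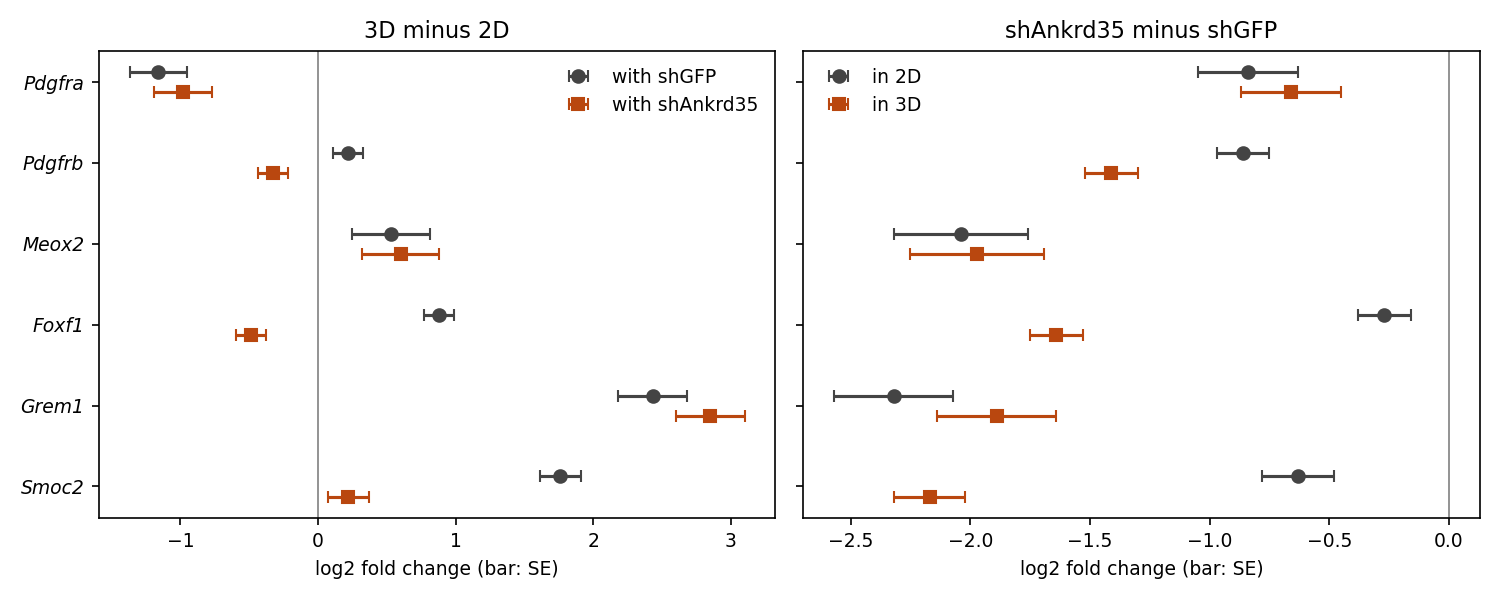
Log2 fold changes of the 6 genes (horizontal; bars are SE of the fit): on the left 3D minus 2D with shGFP (circles) and with shAnkrd35 (squares), on the right shAnkrd35 minus shGFP in 2D (circles) and 3D (squares). All values on the right lie below 0, from -0.27 to -2.32, and those on the left run from -1.16 for Pdgfra to 2.85 for Grem1.

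The size of the hairpin difference split the genes. In Pdgfra, Meox2 and Grem1 the log2 difference in 3D minus that in 2D was 0.18 ± 0.30, 0.07 ± 0.40 and 0.42 ± 0.36, each within or close to its SE. In Pdgfrb, Foxf1 and Smoc2 it was -0.55 ± 0.16, -1.37 ± 0.15 and -1.54 ± 0.21, so the difference was larger in 3D; for Pdgfrb it was -0.86 in 2D and -1.41 in 3D. These are descriptions of the contrasts that chose the genes. The gene pairs also differed in how they varied inside the groups. After subtraction of group means, Meox2 and Grem1 varied together across the 16 libraries (Pearson r = 0.75), while the other 14 pairs had r from -0.59 to 0.42. All of these pairs share library, depth and the GC slope described above, and the part of these in the correlation was not tested.

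Over the 16 libraries the genes with the most similar profiles were not other members. The closest to Pdgfra were Fut11, Stx11 and Ddr2 (Pearson r = 0.954, 0.951 and 0.950), and the closest to Pdgfrb were Emilin2, Gnb4 and Htra3 (0.971, 0.960 and 0.960). Meox2 was closest to Mctp1, Adh7 and Gng12 (0.974, 0.970 and 0.967), and Foxf1 to Wisp2, Stc2 and Srd5a1 (0.967, 0.955 and 0.953). For Grem1 they were Ammecr1, Deptor and Hnrnpd (0.983, 0.982 and 0.979), and for Smoc2 Ace, Slc16a10 and Cxxc5 (0.978, 0.969 and 0.963). The highest r between 2 of the 6 genes was 0.88, for Pdgfrb and Foxf1, and the highest for Pdgfra with another of the 6 was 0.544. These genes were picked for their likeness over the same libraries, so their values are a description without tests. Wisp2, a secreted CCN family protein, was 0.70 ± 0.07 higher in 3D with shGFP and 0.46 ± 0.07 lower with shAnkrd35. Slc16a10, an aromatic amino acid transporter, was 1.65 ± 0.12 higher in 3D with shGFP and 0.16 ± 0.12 higher with shAnkrd35.

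Markers of the cell types in which these genes are usually found were mostly without a value. Of 14 fibroblast markers 6 were measured, all of them matrix genes, and the defining markers Dcn, Lum, Thy1, Fap and Postn had no value here. Their summed level was 24.3 to 27.7 CPM in 2D shGFP, 15.1 to 18.8 in 2D shAnkrd35, 14.1 to 17.1 in 3D shGFP and 10.6 to 46.4 in 3D shAnkrd35. The top of the last range was replicate 3, with Col1a1 at 22.7 CPM against 2.14 to 4.73 in the other 3 and Col1a2 at 10.5 against 1.66 to 2.91. In that library Pdgfrb was the highest of its group, at 9.12 CPM, and Meox2 and Grem1 the lowest, at 0.982 and 2.88 CPM. Pdgfra, Foxf1 and Smoc2, at 1.12, 9.12 and 3.93 CPM, lay within the range of the other 3. Without it the hairpin difference of Pdgfrb in 3D was -1.52 and its growth difference with shAnkrd35 was -0.44 (adjusted p = 0.00094). Of the 6 fibroblast markers, Col5a2 and Col6a3 were lower with shAnkrd35 in 2D and 0 were higher, against 28.8% and 29.0% of all genes. In 3D Col1a2 was higher and Col6a3 lower, against 15.0% and 14.6%. Of 11 pericyte and smooth muscle markers 5 were measured, with sums of 149 to 155, 179 to 198, 77.5 to 85.2 and 78 to 83.7 CPM in the same order of groups, and Rgs5, Myh11 and Tagln had no value. Of the 5, 1 rose (Notch3) and 4 fell in 3D with shGFP, against 35.2% and 32.1% of all genes. With shAnkrd35 1 rose (Cspg4) and 3 fell, against 34.4% and 36.0%. Acta2, smooth muscle actin, fell in 3D by 2.70 ± 0.07 and 3.58 ± 0.07. Between the hairpins 3 were higher with shAnkrd35 in 2D (Acta2, Des and Mcam) and Cspg4 was lower, against 29.0% and 28.8%. In 3D Des was higher and Notch3 lower, against 15.0% and 14.6%. With the trend removed 3 fell with shGFP, and Notch3 was also lower in 2D. Of 12 epithelial markers 7 were measured, mostly at the keratin genes Krt8 and Krt18. Their sums were 5263 to 5762 CPM in 2D shGFP, 7030 to 8557 in 2D shAnkrd35, 5997 to 6178 in 3D shGFP and 6604 to 7180 in 3D shAnkrd35, higher with shAnkrd35 in both growth types without overlap, where the 6 genes were lower. Higher with shAnkrd35 were 5 of the 7 in 2D and 4 in 3D, against 29.0% and 15.0% of all genes, and Cdh1 was lower in 2D and Epcam in 3D. After trend removal 4 of the 7 in 2D and 2 in 3D were higher, and Krt8 and Krt18 did not pass in 3D (0.13 and 0.18). Epcam, an epithelial adhesion gene, was at group means of 0.406 to 2.58 CPM, and the lung epithelial markers Nkx2-1 and Sftpc had no value. Vwf was the endothelial marker measured of 8, while Pecam1 and Cdh5 had no value. It was at 0.995 to 1.9 CPM in 2D shGFP and 1.01 to 1.52 in 3D shGFP, and higher with shAnkrd35 at 4.42 to 5.66 in 2D and 3.06 to 4 in 3D, by 1.66 ± 0.19 (adjusted p = 1.67e-06) and 1.41 ± 0.19 (adjusted p = 2.29e-05). The 3 macrophage markers measured of 7, nearly all Cd14, summed to 41.4 to 42.7 CPM in 2D shGFP, 79.5 to 87.9 in 2D shAnkrd35, 116 to 124 in 3D shGFP and 130 to 152 in 3D shAnkrd35, and Ptprc and Adgre1 had no value. Cd14 was higher with shAnkrd35 by 0.98 ± 0.04 in 2D (adjusted p = 2.41e-11) and by 0.18 ± 0.04 in 3D (adjusted p = 0.00375), the latter 0.15 with the trend removed (adjusted p = 0.0665). The part of other cell types in the levels of the 6 genes was not tested.

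Annotated genes overlap 4 of the 6: Pdgfra overlaps 3 (among them the antisense Gm42802), Foxf1 2 (among them the same-strand gene Gm20388), and Meox2 and Smoc2 1 each, on the opposite strand for Smoc2. None of these has a value here, and the use of strand in counting is not given in the sources used here, so that reads from the 2 strands of such a region cannot be separated. Pdgfrb and Grem1 overlap no annotated gene.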

How the data were processed

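The submitters' processing notes name Trimmomatic 0.38, STAR 2.5.1b, edgeR and the mm10 build. RNA was selected with oligo(dT) beads, per the labels' protocols. The sources used here do not give the counting program, annotation or strand setting. The authors deposited log2 CPM with a prior averaging 2 reads, as the values themselves show: 100% came out as whole reads within 0.01 reads in each of the 16 libraries. CPM without the prior and read counts were recovered from them, and 0 columns belonged to other samples. Every gene but Ankrd35 had at least 1.05 CPM, prior included, in 8 libraries, so lower genes were not analysed here. Gene models came from GENCODE M21 (12217 symbols matched, 104 not, and 99.2% of genes had a length and GC content). Coordinates are counted from 1.

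limma 3.58.1 (R 4.3.3, statmod 1.5.0, trend and robust fitting) was run on the log2 values with means of the 4 groups over 16 libraries. The test covered the 12320 genes that reached 1 CPM, prior included, in 4 or more libraries. Within a contrast, Benjamini-Hochberg adjustment covered all of these, and a gene passed at an adjusted p under 0.05. Fold changes include the prior and understate changes of low genes, and SE is that of the fit. GC and length trends were removed per library with smooth terms (mgcv). The scripts were tested on simulated data. The 6 genes, the 14 lists and the rule for naming genes were chosen with earlier results of these data known. The rule took the 6 genes, from each list up to 4 genes with the smallest p and any marker needed to say what is absent, and for each of the 6 the 3 genes of highest Pearson r with a mean of at least 5 CPM. Genome neighbours, Foxf2, Snai1, Bmper, Chrd, Id1 and other list members named in counts were chosen after their values were seen. Replicate numbers did not pair the compared groups.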

Additional observations from a re-analysis of the deposited data

Results flagged for a closer look

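Of the 24 groups of 4 libraries formed by the 6 genes, 2 held a library that stood apart by Dixon's criterion at the 95% level on the deposited log2 values, which compares the gap to the nearest library with the range of the group. Chance gives about 1 in 20 such groups. Pdgfrb in 3D shAnkrd35 had 1 high library, replicate 3 at 9.12 CPM against 6.65 to 6.81 CPM, with a gap of 0.93 of the range. Meox2 in 2D shAnkrd35 had 1 low library, replicate 2 at 0.713 CPM against 1.06 to 1.14 CPM, with a gap of 0.84 of the range on the log2 scale and 0.81 in CPM, which is under the limit.

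Foxf1 changed in opposite directions from 2D to 3D, by 0.88 with shGFP and by -0.49 with shAnkrd35 on the log2 scale, with no overlap in either comparison. The difference between these changes was not tested, because it is built from the hairpin comparisons on which the gene was chosen.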

How the results depend on the processing

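Of 320 values of the growth differences of the 6 genes under the alternatives, 309 kept their direction and their side of the threshold, and none reversed. The exceptions were in Pdgfrb and Meox2. Pdgfrb with shGFP passed with only the 8 libraries compared (0.22, adjusted p = 0.0275), with voom on recovered reads (0.21, adjusted p = 0.0357), with the GC and length trend removed (0.33) and without both 2D libraries numbered 1 (0.26, adjusted p = 0.0412), and ranged from 0.17 to 0.27 with single libraries left out. Pdgfrb with shAnkrd35 did not pass with the trend removed (-0.21). Meox2 with shGFP passed with voom (0.60, adjusted p = 0.0314) and ranged from 0.21 to 0.73 with single libraries left out. Meox2 with shAnkrd35 passed without both 2D libraries numbered 1 (0.63, adjusted p = 0.0173) and ranged from 0.44 to 0.80 with single libraries left out. The cause was not tested. For listed genes and genome neighbours, trend removal was added after seeing the data. Hairpin differences kept their direction in 320 of 320 values, but the genes were chosen for these differences. Many of the alternatives cannot move a difference of group means, in growth or hairpin comparisons. Examples are the omission of a library outside the comparison, a changed filter and a replicate block. The counts of kept directions are therefore no measure of robustness. A filter at a mean of 5 CPM removed Pdgfra and Meox2, which then had no value. Centring the libraries moved the median of all genes by at most 0.09.

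With the replicate number as a block (replicate block), the differences cannot change, because each group holds every number. Only their SE can. Meox2 with shGFP, at 0.53, had an adjusted p of 0.116 (limma), and no growth call of the 6 genes changed. Of the compared groups, at most 1 of 4 libraries correlated best with its own number (r from -0.48 to 0.21). In 2D shGFP and 3D shAnkrd35, which are not compared with each other, 4 of 4 did (r from 0.12 to 0.19), a hint from the data and not from the design. All 216 counts of called genes stayed within 1.5 times the main count. Read counts of 7 to 26 for Grem1 in 2D shAnkrd35 and Pdgfra in 3D shAnkrd35 limit their precision.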
